A study of Mus musculus with 8 samples.

Results

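The 10 genes described here are transcripts of the mural cells of blood vessels, chosen by name as markers of smooth muscle (Acta2, Tagln, Myh11, Cnn1, Smtn and Mylk) and of pericytes (Pdgfrb, Rgs5, Cspg4 and Abcc9). All 10 were found among the 43346 genes of the count table, and all 10 passed the filter on low counts that left 16111 genes to test. The rule names the genes and uses no measured value, but they were chosen with earlier results of these data known. RNA was sequenced from the ventricles of 8 male C57BL/6 mice, a common inbred strain. At 7 weeks of age, 4 of the mice were injected under the skin of the flank with 1000000 LLC1 cells, a mouse Lewis lung carcinoma line, suspended in PBS, and the other 4 mice received PBS alone. Hearts were taken 14 days later. The tumor-bearing mice are named LLC1-2, LLC1-3, LLC1-5 and LLC2-2, and the PBS-injected mice PBS1-1, PBS1-3, PBS2-1 and PBS2-5, as in their labels. The model rests on a single cell line in male mice, and each library was made from whole ventricular tissue, not from sorted mural cells. Total counts were 12480706 to 19747596 per mouse.

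Smooth muscle cells and pericytes wrap the endothelial tube of blood vessels. Smooth muscle cells form the layered wall of arteries and contract when calcium and calmodulin activate myosin light chain kinase, which phosphorylates the light chains of smooth muscle myosin and lets it pull on actin filaments. Pericytes lie singly along capillaries, share the basement membrane with the endothelium, and are recruited there by endothelial PDGF-B acting on the receptor PDGFRB. The working cell of the ventricle, the cardiomyocyte, contributes most of the RNA of such tissue, so mural transcripts form a small share of it, and in tissue of this kind fewer mural cells and less RNA per mural cell cannot be told apart.

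None of the 10 genes differed between tumor-bearing and PBS-injected mice at a false discovery rate (FDR) below 0.05 in edgeR's quasi-likelihood test, against 8.73% of all genes tested (1406 of 16111, with 4.12% called higher and 4.61% called lower). That split depended on scaling, with 663 of the 1406 called genes higher here, 225 of 1018 with total counts only and 975 of 1594 with gene length offsets. At an unadjusted p under 0.05 the count was 3 of 10 (Acta2, Rgs5 and Pdgfrb), beside 25.5% of all genes. DESeq2 called 1 of the 10, Acta2, and limma-voom called 0. The ranges of both groups overlapped for each of the 10 genes, whereas 17.2% of all genes had groups that did not overlap. The median log2 fold change was -0.0064 for the 6 smooth muscle genes and -0.26 for the 4 pericyte genes, beside -0.010 for all genes tested. Without LLC2-2 the smooth muscle median was -0.27 and the pericyte median -0.31, and with the first number of the label code in the fit they were 0.099 and -0.21.

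Values below are CPM (read counts scaled to a common library size, with TMM factors), given in the order LLC1-2, LLC1-3, LLC1-5 and LLC2-2 for tumor-bearing mice and PBS1-1, PBS1-3, PBS2-1 and PBS2-5 for PBS-injected mice. A log2 fold change is tumor-bearing over PBS-injected with its standard error, and exact p-values come from a two-sided permutation test that enumerates all 70 ways to split 8 mice, which cannot go below 0.0286.

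**Figure D1:**
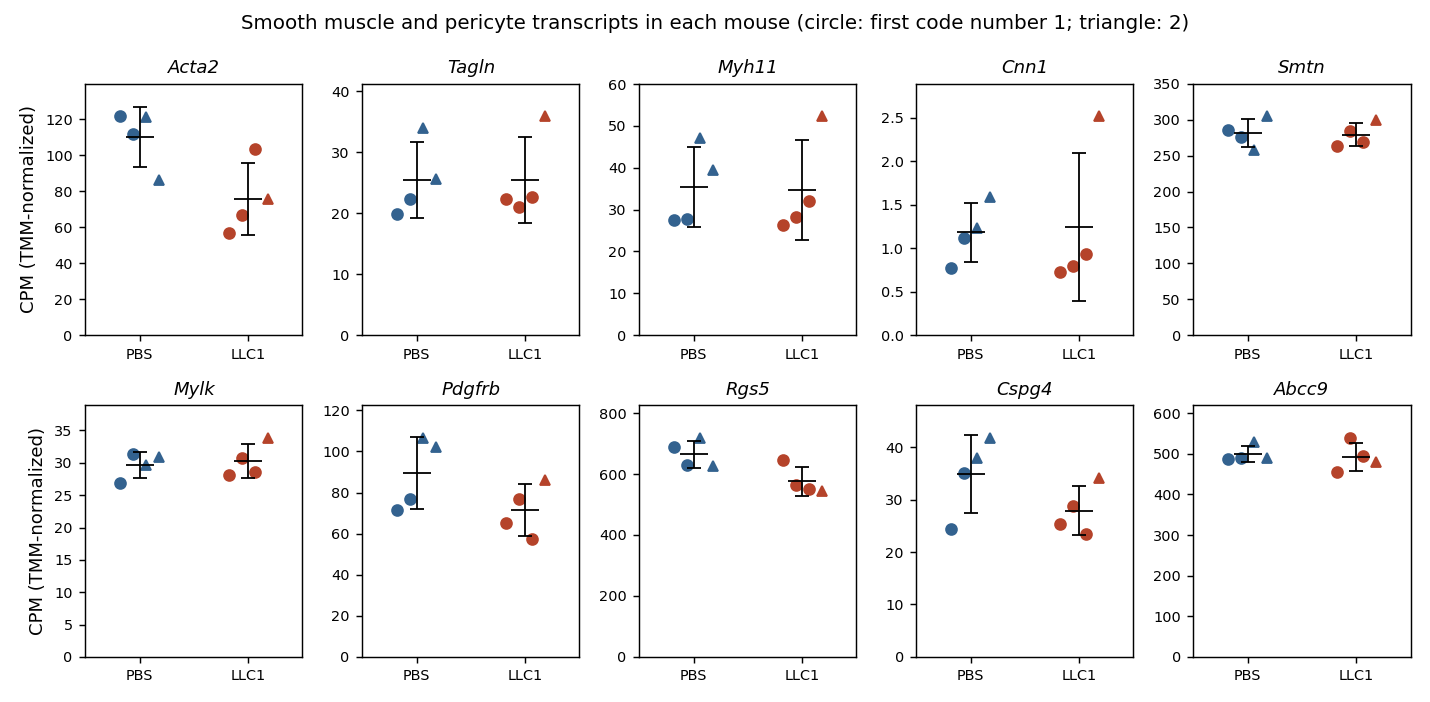
TMM-scaled CPM of each of the 10 genes in each mouse (linear axes from 0), with PBS-injected mice in blue, tumor-bearing mice in red, and the mean and SD (n = 4 per group) as bars. Circles and triangles are mice whose label code begins with 1 or 2, and every panel has overlapping groups.

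Acta2 encodes smooth muscle alpha-actin, the actin of the contractile filament of vascular smooth muscle, which activated fibroblasts also make. The file places it at chr19:34241090-34255336 (mm10). Its level was 56.6, 66.9, 103 and 75.6 CPM in tumor-bearing mice and 121, 112, 121 and 86.3 CPM in PBS-injected mice. In 3 of the 4 tumor-bearing mice the value lay below every PBS-injected mouse, and LLC1-5 lay above PBS2-5. The means were 75.6 ± 20.1 CPM and 110 ± 16.6 CPM (SD, n = 4 each), a log2 fold change of -0.54 ± 0.16 (SE). This corresponded to a difference of -31.2% with a 95% interval from -46.2% to -12.1%. The difference did not pass the threshold (edgeR FDR 0.0595, exact permutation p = 0.0571). It did pass with DESeq2 (FDR 0.0138) and with the edgeR likelihood ratio test (FDR 0.0178). It also passed in edgeR with total counts only (FDR 0.0481) or with genes kept at 1 count or more (FDR 0.0147). Of the 8 edgeR fits that each left out 1 mouse, 2 passed, without LLC1-5 (FDR 0.0164) and without PBS2-5 (FDR 0.0255). Over these 8 fits the log2 fold change ranged from -0.73 to -0.42 and the FDR from 0.0164 to 0.154. Over the alternatives that used all mice or a label-defined subset, the log2 fold change ranged from -0.62 to -0.52 and the FDR from 0.0138 to 0.119.

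The heart also makes an actin of its own, Actc1, which stood at 10078 CPM in tumor-bearing mice and 10459 CPM in PBS-injected mice, so the separation of the 2 transcripts was examined in their sequences. The coding sequences were identical at 934 of 1131 positions (82.6%), and the longest run of identical bases was 23, against a read length of 150 bases. Among the other actins the longest run shared with Acta2 was 56 bases, with Actg1. The 100 coding bases of Acta2 most like Actc1 (coding bases 706 to 805, 91 identical) are shown to make that difference visible, from GENCODE M21 transcripts, with the differing bases in capitals.
Acta2: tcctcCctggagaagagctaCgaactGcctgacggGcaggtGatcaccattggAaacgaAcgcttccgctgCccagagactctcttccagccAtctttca
Actc1: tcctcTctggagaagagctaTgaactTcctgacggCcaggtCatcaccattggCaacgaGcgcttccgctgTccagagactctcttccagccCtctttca
No transcript of another gene aligned to Acta2 at 97% identity or more over at least 150 bases.

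Smooth muscle genes are classically driven by serum response factor bound to the CArG box, a motif of 10 bases that reads alike on both strands. RefSeq promoters (GRCm38.p6, 250 bases before to 50 bases after the annotated start) were at hand for 7 of the 10 genes. These were the smooth muscle genes Acta2, Cnn1, Smtn and Mylk and the pericyte genes Rgs5, Cspg4 and Abcc9. Tagln, Myh11 and Pdgfrb were thus not searched. An exact CArG box occurred in 0 of the 7 windows, beside 1.63% of all 32851 promoters. With 1 mismatch allowed, 2 of the 7 windows held a match (Acta2 and Cspg4, the latter with 2 overlapping matches), beside 21.1% of all promoters. The Acta2 window, chr19:34255324-34255623 on the minus strand (GRCm38.p6), is printed because it carried 2 separate matches, which begin 84 and 34 bases before the start and are in capitals.
Acta2 promoter: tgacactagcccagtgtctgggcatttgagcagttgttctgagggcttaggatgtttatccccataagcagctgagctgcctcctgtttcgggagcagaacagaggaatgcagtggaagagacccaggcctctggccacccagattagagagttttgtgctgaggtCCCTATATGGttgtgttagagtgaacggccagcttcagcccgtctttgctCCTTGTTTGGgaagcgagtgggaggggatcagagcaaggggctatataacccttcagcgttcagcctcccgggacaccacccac
These matches describe letters in the window and were not compared with any measure of binding.

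The other contractile genes stood closer to the PBS level. Tagln (chr9:45929628-45936058) encodes transgelin, also called SM22-alpha, an actin-binding protein of smooth muscle. It was 22.3, 20.9, 22.7 and 35.9 CPM in tumor-bearing mice and 19.8, 22.4, 34.0 and 25.7 CPM in PBS-injected mice. LLC2-2 was the highest of the 8 mice, PBS1-1 was the lowest, and the other 3 tumor-bearing mice lay within the PBS range. Between the groups it had a log2 fold change of -0.0030 ± 0.19, with a 95% interval from -0.41 to 0.41 (edgeR FDR 0.995). In the annotation, 62.4% of the exon bases of Tagln lie opposite Gm48529, a gene of the other strand that the table does not count. Since the library kit does not mark strand, reads of the 2 genes cannot be told apart there. A smaller share, 5.43%, lies opposite Pcsk7, a counted gene of the other strand.

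Myh11 (chr16:14194527-14291408) encodes the heavy chain of smooth muscle myosin, the motor of the contractile filament and the most specific of the smooth muscle markers. Its values were 26.4, 28.2, 31.9 and 52.3 CPM in tumor-bearing mice and 27.6, 27.7, 47.0 and 39.4 CPM in PBS-injected mice. LLC2-2 was again the highest mouse, with PBS2-1 and PBS2-5 next. The log2 fold change of Myh11 was -0.03 ± 0.22 (95% interval -0.51 to 0.45, edgeR FDR 0.950).

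Cnn1 (chr9:22099281-22109630) encodes calponin 1, which binds actin and restrains the myosin ATPase of smooth muscle. It was the scarcest of the 10 transcripts, at 11, 12, 17 and 50 reads in tumor-bearing mice and 9, 16, 21 and 27 reads in PBS-injected mice. On the CPM scale these were 0.728, 0.790, 0.930 and 2.52, and 0.772, 1.12, 1.24 and 1.59. LLC2-2 stood above the other 7 mice. The exact 95% Poisson interval of its count, 37.1 to 65.9 reads, did not reach that of the next tumor-bearing mouse, 9.90 to 27.2 reads, but overlapped that of PBS2-5, 17.8 to 39.3 reads. These intervals are of raw counts, at unequal depths, and cover counting error only. Its estimated log2 fold change was 0.09 ± 0.40 with a 95% interval from -0.78 to 0.96 (edgeR FDR 0.919), and it was -0.55 without LLC2-2.

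Smtn and Mylk had the narrowest intervals among the contractile genes. Smtn (chr11:3517523-3540612) encodes smoothelin, a cytoskeletal protein of contractile smooth muscle. It was 263, 284, 270 and 300 CPM in tumor-bearing mice and 286, 276, 258 and 305 CPM in PBS-injected mice. The log2 fold change of Smtn was -0.0097 ± 0.07, and its 95% interval ran from -10.5% to 10.2% (edgeR FDR 0.949). Of its exon bases, 16.3% lie opposite Gm11946, a gene of the other strand that, unlike Gm48529, is counted. Reads of Smtn and Gm11946 cannot be told apart there either. Smaller overlaps with genes of the other strand hold for Mylk (4.87% at most) and Abcc9 (1.89%). Mylk (chr16:34745210-35002420) encodes myosin light chain kinase, the calcium and calmodulin-dependent switch of smooth muscle contraction. It was 28.0, 30.8, 28.6 and 33.8 CPM in tumor-bearing mice and 26.9, 31.4, 29.6 and 30.9 CPM in PBS-injected mice. For Mylk the log2 fold change was 0.03 ± 0.08 (95% interval -0.15 to 0.21, edgeR FDR 0.868). For both genes the tumor-bearing mice lay among the PBS-injected mice, apart from LLC2-2, the highest of all 8 for Mylk.

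The means of all 4 pericyte genes lay lower in tumor-bearing mice, by amounts that did not pass the threshold and with Abcc9 closest to 0. Rgs5 (chr1:169655501-169695813) encodes a regulator of G protein signaling that shortens signals from G protein-coupled receptors and is among the most abundant pericyte transcripts. It was 646, 563, 552 and 544 CPM in tumor-bearing mice and 687, 628, 718 and 625 CPM in PBS-injected mice. Only LLC1-2 among the tumor-bearing mice reached the PBS range, and without it the groups did not overlap. The means were 576 ± 47.4 CPM and 664 ± 45.5 CPM (SD, n = 4 each). This gave a log2 fold change of -0.21 ± 0.08, a difference of -13.3% with a 95% interval from -22.6% to -2.78% (edgeR FDR 0.113, exact permutation p = 0.0857).

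Pdgfrb (chr18:61045150-61085061) encodes the receptor through which endothelial PDGF-B recruits and keeps pericytes. Its values were 65.3, 76.6, 57.6 and 86.3 CPM in tumor-bearing mice and 71.6, 77.1, 106 and 102 CPM in PBS-injected mice. PBS2-1 and PBS2-5 stood above all other mice, while PBS1-1 and PBS1-3 lay within the tumor-bearing range. For Pdgfrb the log2 fold change was -0.32 ± 0.14 (95% interval -0.64 to -0.0088, edgeR FDR 0.184, exact permutation p = 0.171).

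Cspg4 (chr9:56865104-56899870) encodes the NG2 proteoglycan of the pericyte surface. It was 25.3, 28.7, 23.5 and 34.2 CPM in tumor-bearing mice and 24.5, 35.1, 38.0 and 41.7 CPM in PBS-injected mice. The tumor-bearing mice all lay below the PBS-injected mice other than PBS1-1, which was second lowest of the 8. For Cspg4 the log2 fold change was -0.32 ± 0.15 (95% interval -0.66 to 0.0095, edgeR FDR 0.209, exact permutation p = 0.2). Without PBS1-1 it was -0.45 and passed the threshold (edgeR FDR 0.0219). PBS1-1 also stood apart from the other 7 mice on the second principal component of all genes tested.

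Abcc9 (chr6:142587862-142702274) encodes SUR2, the regulatory subunit of the ATP-sensitive potassium channel of both mural cells and cardiomyocytes. It was 455, 538, 495 and 480 CPM in tumor-bearing mice and 488, 489, 528 and 491 CPM in PBS-injected mice. The log2 fold change was -0.02 ± 0.07, and the 95% interval ran from -10.8% to 9.08% (edgeR FDR 0.885). Summed over the 4 pericyte genes, the level was 1127 to 1206 CPM in tumor-bearing mice and 1229 to 1390 CPM in PBS-injected mice, with no overlap, a sum made up mostly of Rgs5 and Abcc9. Scaled by total counts only, an alternative added after seeing the data, the sums were 1090 to 1194 CPM and 1187 to 1459 CPM, and the groups overlapped. The summed level of the 6 contractile genes was 397 to 500 CPM and 470 to 492 CPM, and the groups overlapped.

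**Figure D2:**
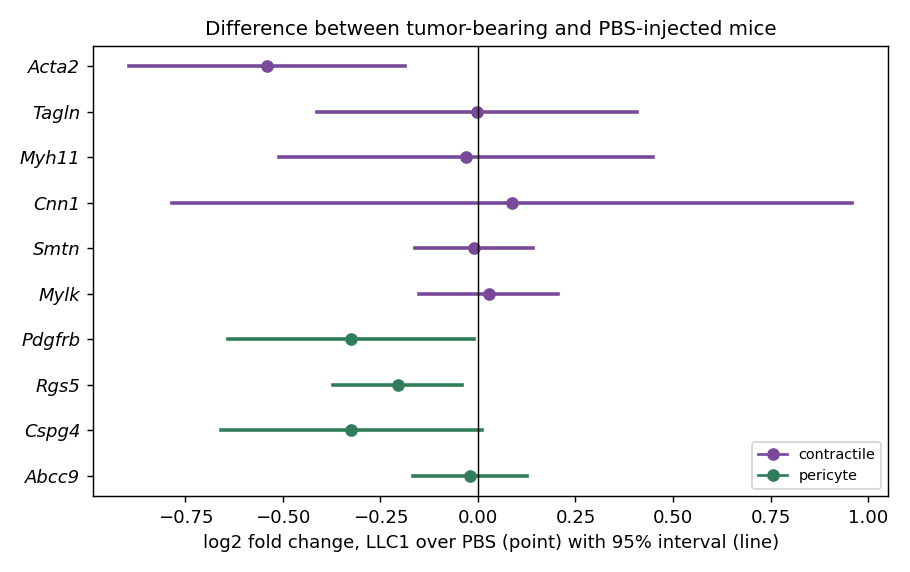
Log2 fold change (tumor-bearing over PBS-injected, n = 4 each) of the 10 genes as points, with 95% intervals from edgeR as lines, contractile genes in purple and pericyte genes in green. The intervals of Acta2, Rgs5 and Pdgfrb lie below 0 and that of Cnn1 is the widest, from -0.78 to 0.96.

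Compared per length, in CPM per kilobase of the gene length that the file gives, the 10 transcripts spanned a wide range of levels. Rgs5 was the highest, at 136 CPM per kb on average over the 8 mice, higher than 97.7% of the genes tested. Abcc9, Smtn and Acta2 followed at 65.7, 64.0 and 52.2 CPM per kb, and each of these 3 overlapped its neighbor in the order over the 8 mice. Tagln and Pdgfrb came next at 16.1 and 14.7 CPM per kb and overlapped each other. Myh11, Cspg4 and Mylk, at 5.29, 3.90 and 2.95 CPM per kb, each overlapped its neighbor, and Cnn1 was the lowest at 0.511 CPM per kb. The steps at which every mouse lay above every mouse of the next gene were Rgs5 over Abcc9 (2.08-fold), Acta2 over Tagln (3.25-fold), Pdgfrb over Myh11 (2.77-fold) and Mylk over Cnn1 (5.78-fold). The transcripts of smoothelin and of SUR2, which cardiomyocytes also make, thus stood above that of smooth muscle myosin in every mouse, and the share of each level that came from mural cells was not tested.

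**Figure D3:**
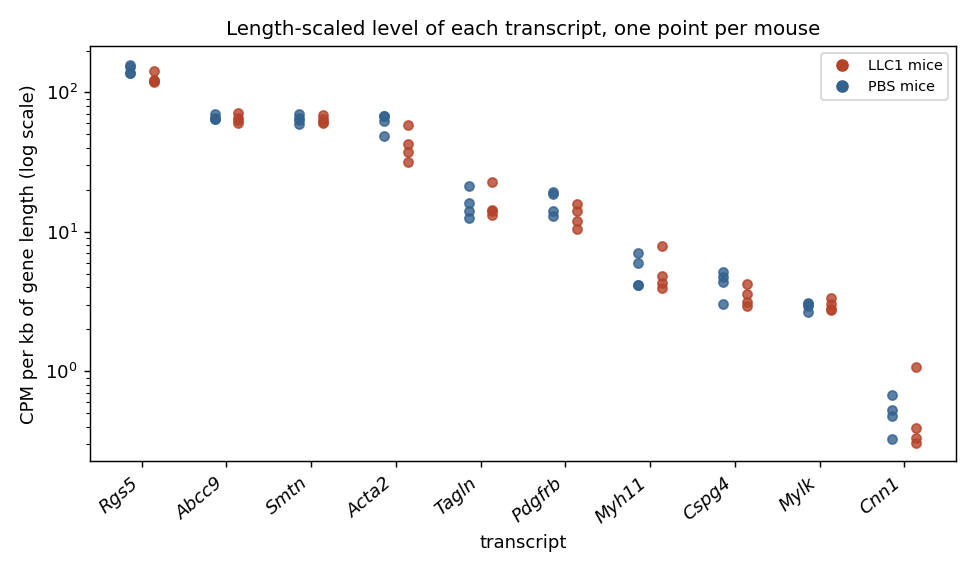
Level per length (CPM per kb, log scale) of the 10 genes in order of their mean, with 1 point per mouse, red for tumor-bearing and blue for PBS-injected. Rgs5 leads at a mean of 136 CPM per kb and Cnn1 is lowest at 0.511 CPM per kb.

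The 10 genes also differed in how much they varied between mice of the same group. The biological coefficient of variation estimated by edgeR was 0.336 for Cnn1 and 0.216 for Myh11, higher than 98.8% and 93.7% of the genes tested. Smtn, Mylk and Abcc9 ranked at 27.1%, 24.5% and 28.7%, below the median of all genes. The variation of Tagln, Myh11 and Cnn1 ran together over mice, with LLC2-2 the highest of the 8 for each of the 3.

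The first number of the label code, 1 for 5 mice and 2 for 3 mice (PBS2-1, PBS2-5 and LLC2-2), went with this variation. Its meaning is not given in the labels, and its own differences were read after the values by mouse were seen. For Tagln, Myh11, Cnn1 and Pdgfrb the 3 mice with a 2 all lay above the 5 mice with a 1, 4 of the 10 genes beside 3.00% of all genes (5.18% with either number above). In an edgeR fit with both group and first number, Myh11 was 0.74 ± 0.09 higher on the log2 scale in mice with a 2 (FDR 0.0506), first of the 16111 genes by p-value. The difference was 0.59 ± 0.10 for Tagln, 1.11 ± 0.28 for Cnn1, 0.44 ± 0.09 for Pdgfrb and 0.41 ± 0.11 for Cspg4 (FDR 0.317 for each). No gene passed the threshold for the first number in edgeR (0%), and 1920 genes (11.9%) had an unadjusted p under 0.05. With 1 tumor-bearing mouse among the 3, the first number and LLC2-2 cannot be told apart within the tumor-bearing group.

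**Figure D4:**
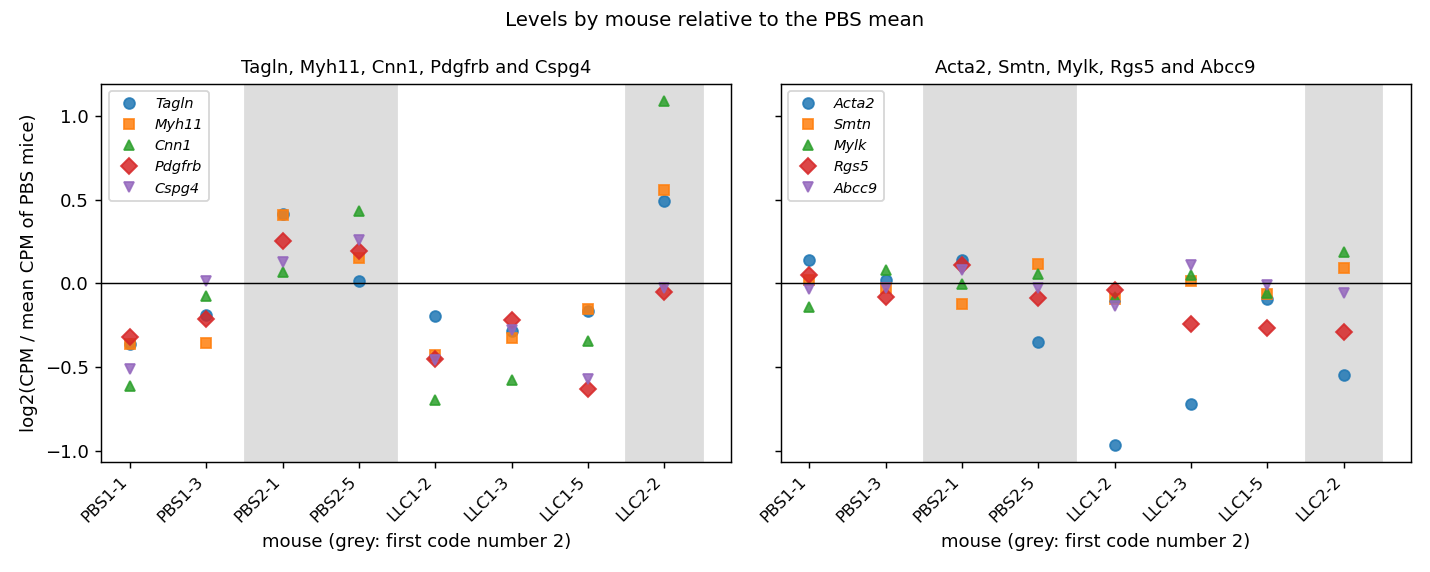
Log2 ratio of each mouse's CPM to the mean of the PBS-injected mice for 5 genes that differed with the first code number at an unadjusted p under 0.05 (left) and the other 5 (right), with mice whose code begins with 2 on grey. In the left panel Tagln, Myh11, Cnn1 and Pdgfrb are higher in all 3 grey mice than in the 5 others, and in the right panel Acta2 lies lowest in LLC1-2.

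With the first number in the fit, the group difference was -0.56 for Acta2 (edgeR FDR 0.0540), -0.21 for Rgs5 (FDR 0.104), -0.20 for Pdgfrb (FDR 0.150) and -0.22 for Cspg4 (FDR 0.221). Within mice whose code begins with 1 (3 tumor-bearing, 2 PBS-injected) the log2 difference of means was -0.67 for Acta2, -0.17 for Rgs5, -0.17 for Pdgfrb and -0.19 for Cspg4. Within mice whose code begins with 2 (1 tumor-bearing, 2 PBS-injected) it was -0.44, -0.30, -0.27 and -0.22 in the same order. The direction was thus the same at both numbers for these 4 genes. They had the lowest log2 fold changes of the 10 over the same 8 mice, so this is no independent check. For Abcc9, the other pericyte gene, the differences were 0.019 and -0.085. An edgeR fit to the 5 mice with a 1 called none of the 10 (Acta2 -0.62, FDR 0.0997, Rgs5 FDR 0.317, Pdgfrb FDR 0.419, Cspg4 FDR 0.419), and the 3 mice with a 2 were not tested alone. For Tagln and Myh11 the group difference in the fit to all 8 mice with the first number was 0.14 and 0.15, above 0 where the fit without the number gave values just below 0.

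Acta2 was also compared with its fellow smooth muscle genes within each mouse, a comparison of 3 ratios added after the values were seen. The ratio of Acta2 to Tagln per kb was 2.26, 2.85, 4.05 and 1.88 in tumor-bearing mice and 5.46, 4.45, 3.17 and 2.99 in PBS-injected mice. The groups overlapped at LLC1-5, and the means were 2.76 ± 0.951 and 4.02 ± 1.16 (SD, n = 4 each, exact permutation p = 0.114, Benjamini-Hochberg adjusted p = 0.171). For Acta2 to Myh11 the means were 8.56 ± 2.75 and 12.3 ± 4.02 (exact permutation p = 0.171, adjusted p = 0.171), and for Rgs5 to Abcc9 they were 1.95 ± 0.274 and 2.21 ± 0.105 (exact permutation p = 0.143, adjusted p = 0.171).

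The genes whose level over the 8 mice was most like the mean profile of the 6 contractile genes were Thap7, B9d1 and Tep1, with a root mean square difference of 0.261, 0.270 and 0.296 SD units. For the 4 pericyte genes, Lrrc42 and Cd180 were among the 3 most alike, at 0.211 and 0.219 SD units.

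Other genes of the same cells were taken from lists chosen by function, with earlier results of these data known. Some of them, desmin among them, are also made by cardiomyocytes. The share of each level that came from mural cells was not tested. Among 24 other pericyte and mural genes, 5 fell in tumor-bearing mice and 0 rose, beside 4.61% and 4.12% of all genes, and 20 of the 24 had a log2 fold change below 0, with a median of -0.18. Among the 5 were the forkhead factor Foxs1 (log2 fold change -0.89, edgeR FDR 0.0144), the Notch target Heyl (-0.44, FDR 0.0185), the adhesion molecule Mcam, also called CD146 (-0.43, FDR 0.0281), and vitronectin, Vtn (-0.34, FDR 0.0320). Heyl averaged 29.8 ± 3.56 CPM in tumor-bearing and 40.3 ± 3.82 CPM in PBS-injected mice, and Vtn 30.8 ± 1.88 CPM and 39.0 ± 4.42 CPM (SD, n = 4 each). All tumor-bearing mice lay below all PBS-injected mice for each of the 5. The count that fell depended on single mice, with 2 without LLC1-3 or without LLC1-5, 3 without LLC1-2, LLC2-2 or PBS1-3, and 6 without PBS1-1, where 1 gene was also called higher.

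Among 22 other contractile and cytoskeletal genes of smooth muscle, 2 fell and 1 rose, a share near that of all genes (8.73% called), and the median was -0.06. Those that fell were Cald1, which encodes the actin-binding protein caldesmon (-0.49, edgeR FDR 0.00376), and the integrin subunit Itga8 (-0.65, FDR 0.0336). Des, the gene for desmin, rose (0.32, FDR 0.00889). Desmin is also an abundant filament protein of cardiomyocytes, and Des averaged 2514 ± 106 CPM and 2009 ± 34.4 CPM in the 2 groups. Without LLC2-2 or without PBS1-1 the number that fell was 4, and without LLC1-2, LLC1-3, LLC1-5, PBS1-3 or PBS2-1 it was 1. The number that rose was 2 without PBS1-1.

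Of 16 regulators of smooth muscle genes and of contraction, edgeR called 1 lower and 0 higher, again near the share of all genes, with a median of -0.08. The number called lower was 0 when any 1 mouse other than PBS2-5 was left out and 4 without PBS2-5, while 2 were called higher without PBS1-1. Serum response factor and its coactivator myocardin, read after their values were seen because they act on the CArG box, had log2 fold changes of 0.17 (Srf) and -0.03 (Myocd) and were not called.

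Signals that pass between endothelium and mural cells were lower for 4 of 19 genes and higher for 0, beside 4.61% and 4.12% of all genes, with a median of -0.15. The sphingosine 1-phosphate receptor gene S1pr3 fell by 0.65 on the log2 scale (edgeR FDR 0.00103), from 31.8 ± 2.05 CPM to 20.3 ± 1.27 CPM (SD, n = 4 each). Its relative S1pr2 fell by 0.64 (FDR 0.0164), the endothelin B receptor gene Ednrb by 0.49 (FDR 0.0138) and the growth factor gene Tgfb1 by 0.44 (FDR 0.0384). The number lower was 2 without LLC1-3 or without LLC1-5 and 6 without PBS1-1, and 1 gene was called higher without PBS1-1 or without PBS2-5. Of the 7 PDGF ligands and receptors, Pdgfrb included, edgeR called 0, with 4 at an unadjusted p under 0.05 (25.5% of all genes) and a median of -0.31. Without PBS1-1 or without PBS2-1, 1 gene of this list was called lower. Pdgfb, the ligand of PDGFRB, named after its value was seen, was lower in every tumor-bearing mouse than in any PBS-injected mouse (-0.42, FDR 0.0595).

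The 4 subunit genes of the ATP-sensitive potassium channel, Abcc9 among them, gave 1 call, beside 8.73% of all genes. Kcnj11, which encodes the pore subunit Kir6.2 that dominates in cardiomyocytes, rose by 0.35 on the log2 scale (82.4 ± 4.94 CPM against 64.5 ± 4.04 CPM, SD, n = 4 each, edgeR FDR 0.0113), a call that was lost with scaling by total counts only. Kcnj8, the Kir6.1 pore subunit typical of mural cells, was not called (-0.09, FDR 0.575).

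**Figure D5:**
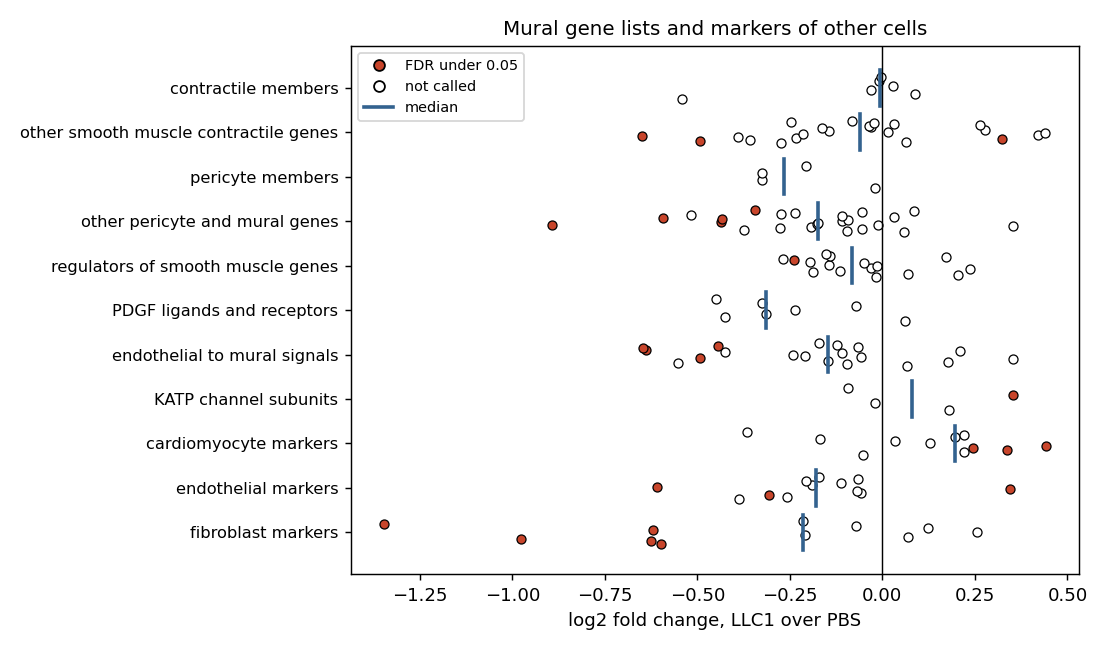
Log2 fold change (tumor-bearing over PBS-injected) of each tested gene in lists of mural genes and of other cell types, 1 circle per gene, filled red at an edgeR FDR under 0.05, with the list median as a blue bar. Filled circles of the other pericyte and mural genes all lie below 0, and cardiomyocyte markers have a median of 0.20.

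Some markers of other cell types were called as well, where 4.12% of all genes were called higher and 4.61% lower. The summed level of 11 cardiomyocyte markers was 116365 to 123104 CPM in tumor-bearing mice and 104121 to 115622 CPM in PBS-injected mice, without overlap, and 3 of the 11 rose and 0 fell. The number that rose was 5 without PBS1-1, 2 without LLC1-3, LLC1-5, PBS1-3 or PBS2-1 and 1 with total counts only. Of 12 endothelial markers 2 fell and 1 rose, with overlapping sums of 1442 to 1703 CPM and 1547 to 2011 CPM. The number that fell was 5 without PBS1-1 and 1 without LLC1-3, LLC2-2 or PBS1-3, and none rose without LLC1-2, LLC1-3, LLC2-2, PBS1-3 or PBS2-1 or with total counts only. Of 11 fibroblast markers 5 fell and 0 rose, with overlapping sums of 2605 to 2978 CPM and 2570 to 3271 CPM, and 3 fell without LLC1-2, LLC1-3, LLC1-5 or PBS1-3, while 1 rose without PBS2-5. No marker of these 3 lists was at 0 in all mice. Their part in the differences of the mural genes was not tested.

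Among the remaining cell types, read beside the same 4.12% higher and 4.61% lower of all genes, 2 of 9 macrophage and leukocyte markers rose and 2 fell, 1 of 4 atrial markers and 1 of 5 valve and great vessel matrix genes fell, 1 of 3 skeletal muscle markers (Ckm, which cardiomyocytes express) rose, and all 4 dividing cell markers tested fell. Leaving out any 1 mouse kept the number of dividing cell markers that fell at 4. The number of macrophage and leukocyte markers that rose was 1 without any mouse other than PBS1-1, and 4 fell without PBS1-1. The atrial call was lost without LLC1-2, LLC1-3, LLC1-5, PBS1-3 or PBS2-5, and the skeletal and valve calls without LLC1-2, LLC1-3, LLC1-5, PBS1-3 or PBS2-1. With total counts only the skeletal call was also lost, and 2 valve and great vessel genes fell without PBS1-1. EdgeR called none of the 4 Schwann and neural markers (1 at an unadjusted p under 0.05) and none of the 5 erythroid markers (0 at that p), while no adipocyte marker reached the filter. Bmp10 of the atrial list, Myh4 of the skeletal list and Th of the neural list were at 0 in all mice. Whether any of these cells took part in the mural values was not tested.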

How the data were processed

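Total RNA of mouse ventricles was sequenced as paired 150-base reads after TruSeq RNA library preparation, which does not mark strand. Per the labels and the submitters' processing notes, the authors used CASAVA, STAR and featureCounts on mm10 and deposited raw read counts per gene, with no normalization. Versions, annotation and strand setting were not given in the sources used here. Total counts were 12480706 to 19747596 per mouse, which limits precision for scarce genes such as Cnn1.

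Counts were filtered with filterByExpr, scaled by TMM and tested with edgeR 4.0.16 (quasi-likelihood F-test, 4 mice against 4, Benjamini-Hochberg adjustment over 16111 genes, FDR threshold 0.05) in R 4.3.3. The standard error is the absolute log2 fold change over the square root of F. P-values set a difference against the spread between these mice. Log2 CPM for permutation tests used a prior count of 2. DESeq2 1.42.0, limma 3.58.1, other scalings and filters, and leaving out each mouse were alternatives. Scripts were tested on simulated counts. Transcript similarity was searched with BLAST 2.17.0 on GENCODE M21, and promoters came from RefSeq GRCm38.p6.

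The members and the 20 gene lists were chosen with earlier results of these data known. All 10 members are named, with list genes at an FDR under 0.05 (at most 6 per list, by FDR) and the 3 genes nearest in pattern per subset, except that a few genes the rule would name are not reported here. Actc1, Srf, Myocd, Pdgfb and Kcnj8 fall outside that rule and were named after their values were seen. The first code number was chosen as a covariate from the labels, while its own coefficient, the ratios, the summed levels by total counts and the fit to mice with code 1 were added after seeing the data.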

Additional observations from a re-analysis of the deposited data

Results flagged for a closer look

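Among the 20 combinations of 10 genes and 2 groups, 3 held a mouse far from the rest of its group by Dixon's gap ratio (above its 95% critical value for 4 mice). Chance gives about 1 such mouse in 20 groups. LLC2-2 stood apart for Tagln, at 35.9 CPM against 22.7 CPM in the nearest tumor-bearing mouse (gap ratio 0.882). LLC2-2 stood apart for Cnn1 as well, at 2.52 CPM against 0.930 CPM (gap ratio 0.887). PBS2-1 stood apart for Abcc9, at 528 CPM against 491 CPM (gap ratio 0.939), while the other 3 PBS-injected mice lay between 488 and 491 CPM.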

How the results depend on the processing

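No paired analysis was possible because the groups share only 1 replicate code, 1-3, which names different mice. The number of genes called, 1406, was 542 to 1949 when 1 mouse was left out and 735 among mice with code 1 only. The number of the 10 genes called, 0, was 1 (Acta2) with DESeq2, with total counts only, with genes kept at 1 count or more and with the likelihood ratio test. It was 0 to 1 when 1 mouse was left out (Acta2 without LLC1-5 or PBS2-5, Cspg4 without PBS1-1). The number of genes with groups that do not overlap, 0, was 1 (Rgs5) with total counts only. It was 0 to 1 when 1 mouse was left out (Rgs5 without LLC1-2, Acta2 without LLC1-5 or PBS2-5, Cspg4 without PBS1-1). In each of these cases the mouse left out was one that made the groups overlap, so the loss of overlap follows from leaving it out. The share of all genes at these settings was not computed, and the 17.2% holds for all 8 mice with TMM.

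Differences near 0 changed sign, none of them called. With DESeq2, Tagln was 0.0028. Mylk was -0.028 with total counts only. With genes kept at 1 count or more, Tagln was 0.012 and Smtn 0.0057. With limma-voom, Cnn1 was -0.068. With the first number as a covariate, Tagln was 0.14, Myh11 0.15 and Smtn 0.0048. With length offsets, Myh11 was 0.047, Smtn 0.040 and Abcc9 0.064. Among mice with code 1 only, Tagln was 0.054, Myh11 0.061, Cnn1 -0.23, Mylk -0.0080 and Abcc9 0.020. Leaving out 1 mouse gave -0.22 to 0.17 for Tagln, -0.31 to 0.13 for Myh11, -0.55 to 0.26 for Cnn1, -0.053 to 0.027 for Smtn, -0.036 to 0.063 for Mylk and -0.065 to 0.016 for Abcc9. Acta2, Rgs5, Pdgfrb and Cspg4 were below 0 under every alternative run. The cause of these changes was not tested.

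With 4 mice per group, the intervals of Tagln, Myh11 and Cnn1 are wide, and a p above the threshold does not show that a gene was alike in both groups.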

Other observations

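The closest relatives of the 10 genes were read as a further group. Of 21 tested paralogs, 4 fell and 2 rose in tumor-bearing mice, beside 4.61% and 4.12% of all genes, and the median log2 fold change was -0.16. Those that fell are known for the cytoskeleton of cells other than muscle. The non-muscle myosin heavy chain genes Myh10 and Myh9 fell by 0.60 (edgeR FDR 0.000997) and 0.44 (FDR 0.0234) on the log2 scale, the beta-actin gene Actb by 0.49 (FDR 0.00281) and the transgelin relative Tagln2 by 0.39 (FDR 0.0361). Actb averaged 267 ± 10.8 CPM in tumor-bearing and 376 ± 32.4 CPM in PBS-injected mice (SD, n = 4 each), and the groups did not overlap. Myh14, a further non-muscle myosin heavy chain gene, rose by 0.46 (FDR 0.00139), and Mylk3, the myosin light chain kinase of cardiomyocytes, rose by 0.23 (FDR 0.0354). The number that fell was 2 without LLC1-2, LLC1-5, LLC2-2 or PBS1-3. The number that rose was 1 without LLC1-2, LLC1-3, LLC1-5, LLC2-2, PBS1-3 or PBS2-1, and 1 with total counts only.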
